A study of Drosophila melanogaster with 12 samples.

Results

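The transcripts described here come from genes of lipid droplets and lipases: *Lsd-1*, *Lsd-2*, *bmm*, *mdy*, *mag*, *Lip3* and *CG31091*. They were selected by name, with earlier results of these same data known. Of the 7 names, 6 were found in the tables of 9981 genes and are described below, and *Lip3* was not analysed here. Because the genes were picked with their levels known, their values are given as a description, with no p-value.

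RNA was sequenced from dissected adult intestines of *Drosophila melanogaster*, in flies of strain w1118 by the labels, in 2 experiments on *dMPC1*, a subunit of the carrier that brings pyruvate into mitochondria. In the first, *myo1A-GAL4* drove RNAi against *dMPC1* in enterocytes, the absorptive cells of the intestine, and RNAi against *mCherry*, a fluorescent protein absent from flies, served as the control. Both genotypes carried *Tub-GAL80ts*, a temperature-sensitive repressor of GAL4 that keeps RNAi off until adulthood, and RNAi ran for 7 days from an age of 4 to 5 days. In the second, animals carrying a different *dMPC1* deletion on each chromosome (transheterozygous mutants, lacking the gene in every tissue) were compared with precise excision controls, in which the P element had left the locus intact, at 7 to 10 days of age. The labels number 3 replicates per group, and the study's methods give 15 intestines per replicate in the RNAi experiment. The values below cover 8 of the 12 libraries. These are replicates 1 and 3 of *mCherry-RNAi*, all 3 of *dMPC1-RNAi*, replicate 2 of the precise excision control, and replicates 1 and 2 of the mutants, with 4 libraries not analysed here.

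Animal cells keep triglyceride in lipid droplets, which are coated by perilipins that control the access of lipases. Enterocytes take up dietary fatty acids and monoglycerides released by secreted lipases in the gut lumen, rebuild triglyceride from them, and either store it in droplets or export it in lipoproteins to the rest of the body. *Lsd-1* and *Lsd-2* encode the fly perilipins. *bmm* (brummer) encodes the cytoplasmic triglyceride lipase related to mammalian ATGL, *mdy* (midway) encodes the DGAT1-type acyltransferase that adds the last fatty acid to triglyceride, and *mag* (magro) encodes a gut lipase that acts on dietary triglyceride and on cholesterol esters. *CG31091* and *Lip3* belong to the acid lipase family by annotation.

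Reads in genes ranged from 7362983 (mutant replicate 2) to 21918521 (mutant replicate 1). The target transcript *Mpc1* (FBgn0038662) was at 2936 and 3114 normalized counts with *mCherry* RNAi and at 803 to 841 with *dMPC1* RNAi, and at 1997 in the precise excision library against 5.31 and 13.7 in mutants. A normalized count is a gene's read count divided by the size factor of its library. All 7 enterocyte marker genes were present in every library. *dMPC1-RNAi* replicate 1 stood apart. Its reads differed from those of replicates 2 and 3 by a chi-square per gene of 46.2 and 55.8. Between replicates 2 and 3 the value was 11.5. Of a list of 16 egg chamber markers, 5 germline genes summed to 284 normalized counts in replicate 1. They summed to 9.86 to 12.5 in the other 4 libraries of that experiment. The other genes of that list were each at 1.83 or below in replicate 1, and *Cp15* reached 13.9 in replicate 3. The values of the 6 genes and the counts and medians of the gene lists in the RNAi experiment are therefore also given without *dMPC1-RNAi* replicate 1. The single precise excision library is the only control of the mutant comparison, so that any value particular to that library cannot be told apart from a difference of genotype.

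The 6 genes spanned a wide range of expression. Per kilobase of exon, in the BDGP6 annotation, *mag* had the highest level in the *mCherry-RNAi* controls, with 12073 ± 111 normalized counts per kilobase (SD, n = 2), and ranked between 137 and 143 among 9791 genes with a known length. *Lsd-2* followed at 2668 ± 60.6, *bmm* at 1185 ± 27.5 and *Lsd-1* at 785 ± 75.1. *mdy* was at 84.0 ± 6.97 and *CG31091* at 25.6 ± 2.01 per kilobase. No neighbours in this order overlapped between the 2 control libraries.

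The means kept this order with *dMPC1* RNAi, but the gap at its top closed. *mag* fell to 1815 ± 658 normalized counts per kilobase (SD, n = 3), and its range of 1255 to 2540 overlapped that of *Lsd-2*, which was 1302 to 1330. In replicate 3, *Lsd-2* was the higher of the pair. In the mutants, *mag* (6254 and 8695 per kilobase) was again far above *Lsd-2* (1049 and 1239), while *bmm* (763 and 896) and *Lsd-1* (581 and 892) overlapped. The precise excision library had *CG31091* at 934 per kilobase, close to *Lsd-1* at 1032 in the same library.

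**Figure D1:**
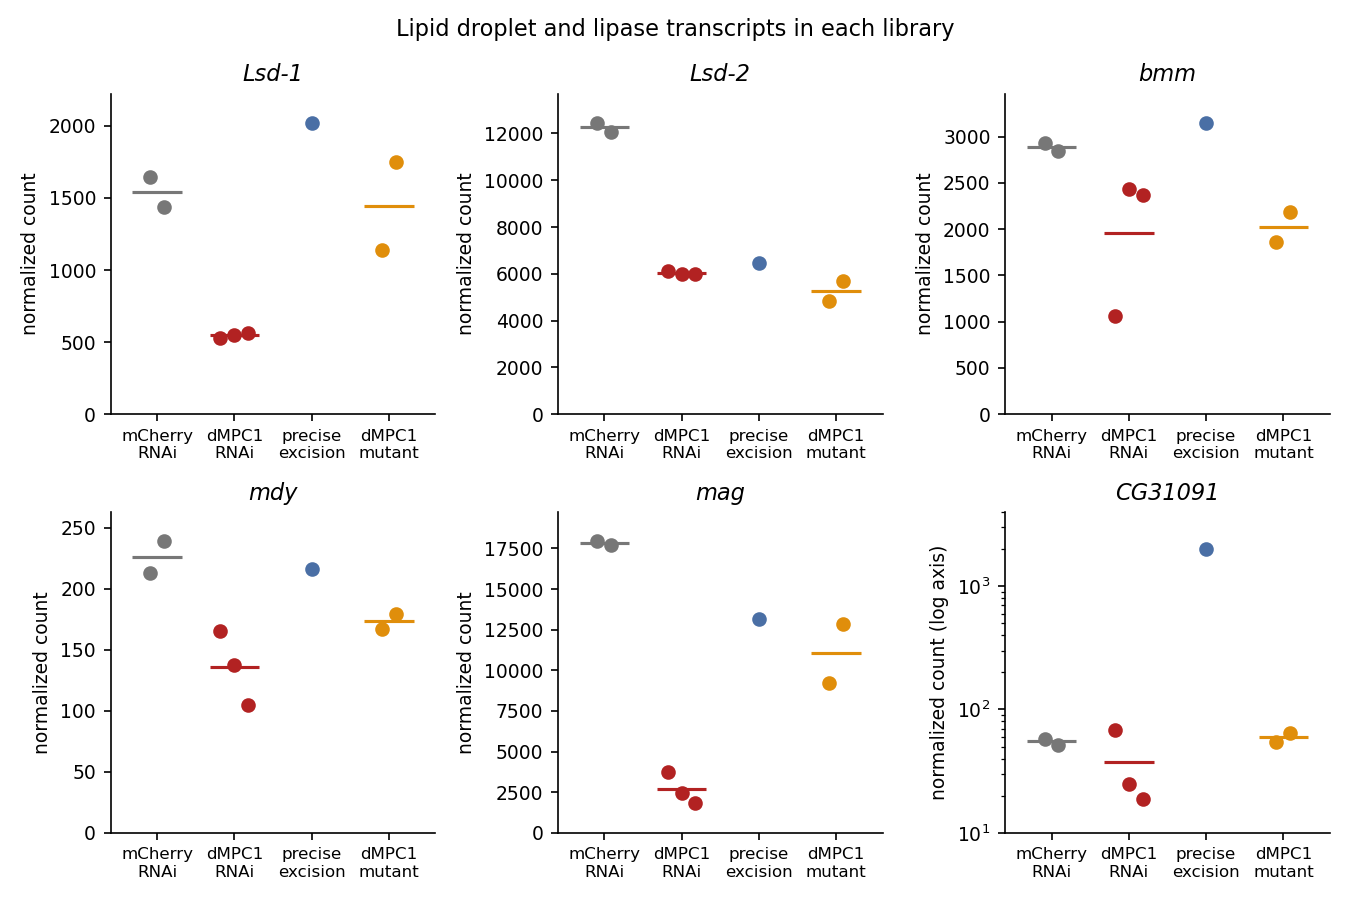
Normalized counts of the 6 genes in each of the 8 libraries. Each point is a library, lines are group means where a group has more than 1 library, and the axis of *CG31091* is logarithmic while the others start at 0. *Lsd-1*, *Lsd-2* and *mag* lie clearly lower with *dMPC1* RNAi than with *mCherry* RNAi, *bmm* is low in 1 *dMPC1-RNAi* library, and *CG31091* is high only in the precise excision library.

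Which of these transcripts differed when *dMPC1* was silenced in enterocytes alone was addressed by comparing *dMPC1-RNAi* with *mCherry-RNAi* intestines. Both perilipin transcripts and *mag* were lower. A gene was called when limma, fitted across all genes, gave an adjusted p (Benjamini-Hochberg) no higher than 0.01 and a log2 fold change no smaller than 0.6 in either direction. By that rule 3 of the 6 genes were called lower and 0 higher, where 6.71% of the 8921 genes tested were called lower. In 5 of the 6, all but *CG31091*, every *dMPC1-RNAi* library lay below both controls, which held for 31.8% of all genes. The median log2 fold change of the 6 was −0.89, against −0.01 over all genes tested. Since the genes were picked with these results known, nothing is read from their counts.

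*Lsd-1* (FBgn0039114, on 3R), the perilipin through which hormone-stimulated lipolysis acts, had 1643 and 1435 normalized counts in the controls and 526, 553 and 561 with *dMPC1* RNAi. The *dMPC1-RNAi* libraries were close to each other, at 547 ± 18.5 (SD, n = 3), and far from the lowest control. This amounted to a log2 fold change of −1.49 (standard error 0.09), and the control mean was 2.81 times that with RNAi. Leaving out any single library gave −1.59 to −1.39, and the gene was called each time, at −1.46 without *dMPC1-RNAi* replicate 1. In BDGP6 an exon of *Lsd-1* overlaps *CG10214* on the opposite strand, which had 165 to 264 normalized counts across the libraries. Whether counting used strand is not stated, so reads from the overlap cannot be assigned.

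*Lsd-2* (FBgn0030608, on X), the perilipin that protects stored triglyceride from lipolysis, had 12462 and 12068 normalized counts in the controls. It had 6116, 5990 and 5986 with *dMPC1* RNAi. The *dMPC1-RNAi* libraries were close to each other, at 6030 ± 74.2 (SD, n = 3), and the groups did not overlap. On the log2 scale the fold change was −1.02 (standard error 0.08), a 2.03-fold lower mean. The value moved between −1.047 and −1.001 when a library was left out, but the gene was no longer called without control replicate 1. Without *dMPC1-RNAi* replicate 1 it was −1.03 and was called.

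Although both perilipins were lower, they were not lower to the same extent. The ratio of *Lsd-2* to *Lsd-1* per kilobase was 3.23 and 3.59 in the controls, and 4.96, 4.62 and 4.55 with *dMPC1* RNAi. The ranges did not overlap. In the other experiment the same ratio was 1.36 for precise excision and 1.81 and 1.39 in mutants, below all 5 libraries of the RNAi experiment.

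*mag* (FBgn0036996, on 3L) had the largest difference of the 6 genes in this comparison. It had 17947 and 17716 normalized counts in the controls and 3751, 2440 and 1853 with *dMPC1* RNAi. The highest *dMPC1-RNAi* value, in replicate 1, was still several times below the lowest control. The log2 fold change was −2.79 (standard error 0.27), and 0.314% of the genes tested had a lower one. The mean was 6.65-fold lower with RNAi. Without *dMPC1-RNAi* replicate 1 it was −3.07. The call was lost when either control replicate was left out, which leaves 1 control library, with log2 fold changes that stayed within −3.07 and −2.56 in all leave-one-out fits.

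*bmm* (FBgn0036449, on 3L), the lipase that opens droplet stores, had 2936 and 2841 normalized counts in the controls. It had 1064 in *dMPC1-RNAi* replicate 1, against 2438 and 2373 in replicates 2 and 3. All 3 were below the controls, but replicate 1 alone was less than 50% of either other replicate. Its log2 fold change was −0.66 (standard error 0.35), and the gene was not called. Without replicate 1 it was −0.26, also not called, so the size of the difference rests on that library.

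*mdy* (FBgn0004797, on 2L), which acts at the last step of triglyceride synthesis, was scarce. It had 213 and 239 normalized counts in the controls and 166, 137 and 105 with *dMPC1* RNAi, from 128 to 230 reads per library. The groups did not overlap, and the *dMPC1-RNAi* libraries differed among themselves about as much as replicate 1 differed from the controls. The log2 fold change was −0.75 (standard error 0.20), not called. Without *dMPC1-RNAi* replicate 1 it was −0.91 and was called. The ratio of *bmm*, which breaks triglyceride down, to *mdy*, which makes it, was 15.2 and 13.1 per kilobase in the controls. With *dMPC1* RNAi it was 7.09 in replicate 1 and 19.6 and 25.0 in replicates 2 and 3, on either side of the controls.

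*CG31091* (FBgn0051091, on 3R) was near the bottom of the range in this experiment. It had 58.1 and 52.0 normalized counts in the controls. With *dMPC1* RNAi it had 68.6 in replicate 1 and 25.0 and 18.8 in replicates 2 and 3. Replicate 1 was above both controls and the others were below, so the groups overlapped. The lowest value rests on 23 reads, whose 95% exact Poisson interval is 11.9 to 28.2 normalized counts and covers counting error only. The log2 fold change was −0.76 (standard error 0.51), not called. Without replicate 1 it was −1.30 and was called, while without replicate 3 it was −0.40 and was not. Without *dMPC1-RNAi* replicate 1, 5 of the 6 genes were called lower, against 3 with all libraries. Over all genes, those that fell numbered 599 with all libraries and up to 1040 when a library was left out. Nothing is therefore read from these counts.

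**Figure D2:**
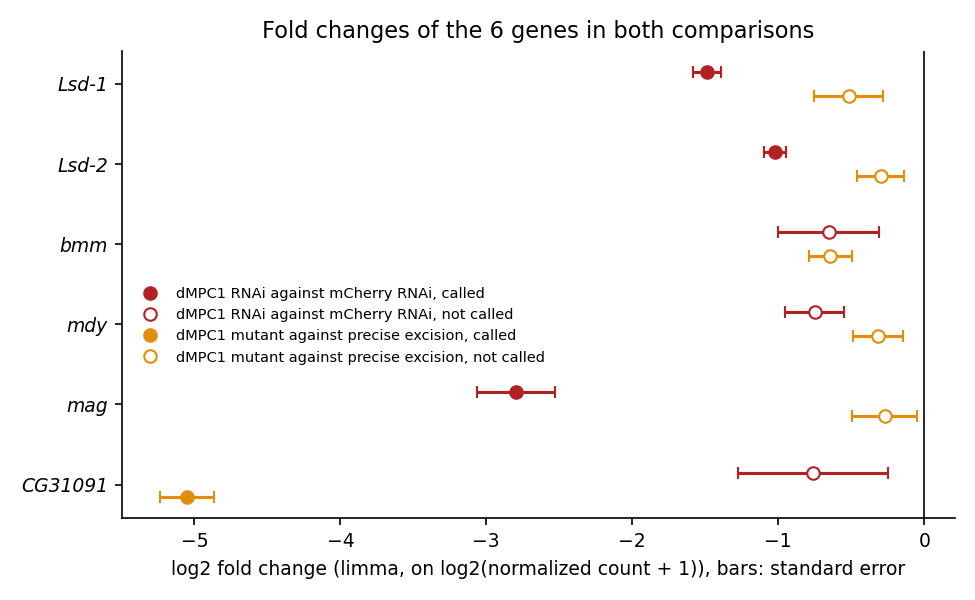
Log2 fold changes of the 6 genes in both comparisons, from limma on log2(normalized count + 1), with bars of 1 standard error and filled points where the gene was called. With *dMPC1* RNAi, *mag* has the lowest value (−2.79), followed by *Lsd-1* (−1.49) and *Lsd-2* (−1.02). In mutants *CG31091* is at −5.05 and the other 5 lie between −0.64 and −0.27, none of them called.

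Markers of other tissues moved with the same comparison. The fat body, the main lipid store of the fly, expresses *Lsd-1*, *Lsd-2*, *bmm* and *mdy* too. Of 10 fat body markers 8 were found, and they summed to 24216 and 31917 normalized counts in the controls and to 9039 to 12666 with *dMPC1* RNAi, of which the yolk protein genes *Yp1*, *Yp2* and *Yp3* made up most. Without the yolk protein genes the sum was 1614 and 1663 in the controls and 939 to 1246 with RNAi. Most of it came from the gene *to*, at 1472 and 1484 in the controls against 888 to 1193. *Lsp1gamma* was also lower with RNAi, at 123 and 165 against 21.12 to 31.05, and *Fbp2* overlapped between the groups. *Lsp2*, a defining fat body gene, was at 0 in both controls and at 5.49 to 8.64 with RNAi. *Lsp1beta* was at 2.08 and 2.19 in the controls against 8.23 to 15.4. Enterocyte markers summed to 663122 and 701551 in the controls and 395291 to 454914 with RNAi, where *betaTry* went from 196422 and 213042 to between 58301 and 62009, while *nub* and *Myo61F* were higher in each *dMPC1-RNAi* library than in the controls. Malpighian tubule markers, 5 of 5 found, summed to 15648 and 18088 in the controls and 9052 to 12981 with RNAi. Of these markers, *CapaR* was higher with RNAi, at 264 to 355 against 229 and 231, and *Uro* overlapped between the groups. The part of these differences in the levels of the lipid genes was not tested. In bulk tissue, fewer cells of a type and less RNA per cell cannot be told apart.

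The same transcripts were then compared between *dMPC1* mutants and the precise excision control, where the gene is missing from the whole animal. All 6 had lower values in both mutant libraries than in the precise excision library, an order seen in 38.9% of the genes tested. Only *CG31091* was called, and 2.39% of the 8794 genes tested were called lower. The median log2 fold change of the 6 was −0.42, against 0.01 over all genes.

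The perilipins differed less here. *Lsd-1* had 2022 normalized counts in the control library, against 1139 and 1748 in mutants, for a log2 fold change of −0.52 (standard error 0.24). The mutant libraries differed from each other more than the higher of them did from the control. *Lsd-2* had 6453 in the control, against 4825 and 5695 in mutants, for a log2 fold change of −0.30 (standard error 0.16). Neither was called. The precise excision value of *Lsd-2* was 0.526 times the *mCherry-RNAi* mean and close to the *dMPC1-RNAi* values, so that this gene differed about as much between the control groups of the experiments as between the groups of the RNAi experiment.

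*bmm* was at 3151 normalized counts in the control and lower in mutants, at 1859 and 2185. Its log2 fold change was −0.64 (standard error 0.15), larger than those of the perilipins but not called. *mdy* had 216 in the control and 167 and 180 in mutants, with a log2 fold change of −0.32 (standard error 0.17). The ratio of *bmm* to *mdy* per kilobase was 16.1 in the control and 12.3 and 13.4 in mutants.

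*mag* had 13146 normalized counts in the control, and 9237 and 12842 in mutants. Mutant replicate 2 was nearly level with the control. Its log2 fold change was −0.27 (standard error 0.22), and leaving out a mutant library gave −0.51 or −0.03. The ratio of *mag* to *Lsd-2* per kilobase, which was 4.48 and 4.57 with *mCherry* RNAi and 0.964 to 1.91 with *dMPC1* RNAi, was 6.34 for precise excision and 5.96 and 7.02 in mutants.

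*CG31091* had 2008 normalized counts in the single control, and 54.7 and 65.0 in mutants. Its log2 fold change was −5.05 (standard error 0.18), a 33.5-fold lower mean. The mutant values were close to those of the *mCherry-RNAi* controls, at 52.0 and 58.1, whereas the precise excision value was 36.5 times their mean and 29.3 times the highest of the other 7 libraries. It rested on 1866 reads, so counting error was small, but on 1 library. The call was lost without mutant replicate 1 or 2, where the fit took its spread from all libraries, and without a filter on low values.

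Such an excess in 1 library was rare. In the precise excision library 3 of 9981 genes had more than 10 times the level of every other library (and at least 10 normalized counts), *CG31091*, *CG12502* and *CG10154*, and in the other libraries 0 to 4 genes did. The nearest measured gene to *CG31091* in BDGP6, *CG31089*, lies 471 bases away on the same strand. It had 136 in the precise excision library against 3.12 to 27.1 in the other 7. *CG42235*, 4850 bases away and on the same strand, had 8466 in that library, within its range of 4772 to 14510 elsewhere. These genes were named after their values were seen.

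**Figure D3:**
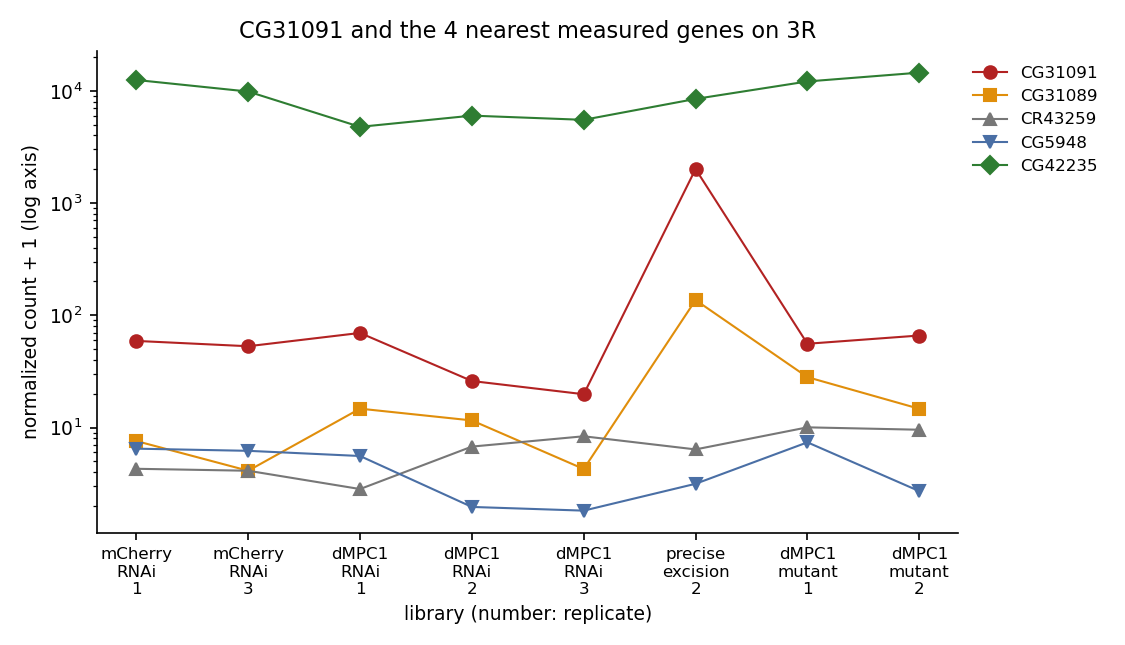
Normalized counts plus 1, on a log axis, of *CG31091* and the 4 measured genes nearest to it in BDGP6, in each library. Lines join the libraries for reading only. *CG31091* (2008) and *CG31089* (136) peak in the precise excision library, and the other 3 genes do not.

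Markers of other tissues differed between the precise excision library and the mutants, in both directions. Hemocyte markers, 4 of 5 found, summed to 1013 in it and to 345 and 498 in mutants. Visceral muscle markers, 8 of 8 found, summed to 25918 against 14096 and 14166, and 8 fat body markers to 44830 against 10588 and 11566, or 2097 against 1950 and 2025 without yolk protein genes. Most of this last sum came from the gene *to*, at 2066 against 1801 and 1914. Germline genes summed to 76.4 against 3.19 and 12.0. The sum of Malpighian tubule markers was lower in it, at 14447 against 17291 and 21423. Of these markers, *Uro* (4424.5 against 3482 and 3752) and *CapaR* (230 against 165 and 212) were higher in it. The fat body genes *Lsp2*, at 8.61 against 56.9 and 82.1, and *Lsp1gamma*, at 11.8 against 49.4 and 53.0, were lower in it. The part of all these marker differences in the values of *CG31091* and *bmm* was not tested.

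A limma interaction term, fitted to the 4 groups together, asked whether the effects differed between the experiments. It called 8.71% of 8916 genes at an adjusted p no higher than 0.01. *mag* and *CG31091* were called. The log2 fold change of *mag* was higher in mutants than with RNAi by 2.52 (standard error 0.45), and that of *CG31091* was −4.29 relative to RNAi (standard error 0.78). The differences for *Lsd-1* (0.97, standard error 0.28), *Lsd-2* (0.72, standard error 0.15), *mdy* (0.43, standard error 0.31) and *bmm* (0.01, standard error 0.54) were not called. Neither call held in every fit that left out a library: with *mCherry-RNAi* replicate 1 or 3, *dMPC1-RNAi* replicate 2 or mutant replicate 2 left out, 0 of the 6 genes were called. Only *CG31091* was called without *dMPC1-RNAi* replicate 3, and only *Lsd-1* (1.28) without mutant replicate 1. Without *dMPC1-RNAi* replicate 1, *mag* (2.80), *CG31091* (−3.75) and *Lsd-2* (0.73) were called. The experiments also differed in induction, age and genotype, with *myo1A-GAL4* and *Tub-GAL80ts* carried in the RNAi experiment. An effect of enterocyte against whole-animal loss cannot be told apart from those.

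Across the 8 libraries, on the scale log2(normalized count + 1), *mag* varied most like *Lsd-1* (Pearson r = 0.93) and *mdy* (r = 0.92) among the 6 genes, and *Lsd-1* and *mdy* gave r = 0.79. *bmm*, *Lsd-2* and *CG31091* followed the others less closely, with r of 0.27 to 0.59, −0.02 to 0.60 and −0.02 to 0.61. *CG31091* and *Lsd-2* gave r = −0.02. The libraries fall into 4 groups and 2 experiments, which these values share, and no test was made.

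Among 8915 other genes with a mean of at least 10, the closest to *Lsd-1* were *CG3246*, *CG6439* and *l(1)G0156* (r = 0.99, 0.98 and 0.98), and to *Lsd-2* *CG18404*, *CG5246* and *CG6333* (r = 0.99 each). The closest to *mag* were *emp*, *magu* and *CG10560* (r = 0.99 each), and to *mdy* *bab1*, *MYPT-75D* and *WASp* (r = 0.99, 0.98 and 0.97). *emp*, a CD36-type scavenger receptor, had 1356 and 1265 normalized counts in *mCherry-RNAi* controls, 595, 491 and 404 with *dMPC1* RNAi, 1198 for precise excision, and 1045 and 1062 in mutants, the same order of groups as *mag*. For *bmm* the closest were *CG11050*, *CG10602* and *CG3939* (r = 0.97 each), all lowest of the 8 libraries in *dMPC1-RNAi* replicate 1. For *CG31091* they were *Syx1A*, *CG10650* and *nAChRbeta3* (r = 0.97, 0.97 and 0.95), all highest in the precise excision library.

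Other genes of lipid metabolism were followed through 7 lists, none of which holds any of the 6 genes. The lists were also drawn up with earlier results known, and their genes were called by the same rule, so that 6.71% of genes falling with RNAi and 2.39% in mutants is again the background. Adjusted p-values of list genes come from the fits over all genes. Because of how lists and named genes were picked, they are a description and no independent evidence. In triglyceride synthesis, 2 of 10 genes tested fell with *dMPC1* RNAi and 0 rose, and the median log2 fold change was −0.39. *Gpdh*, which makes the glycerol 3-phosphate backbone, had 8731 ± 129 normalized counts (SD, n = 2) in controls and fell to 4906 ± 89.5 (SD, n = 3), which is −0.83 on the log2 scale (standard error 0.08, limma adjusted p = 0.000665). *CG4729*, an acyltransferase for the second fatty acid, had −0.66 (standard error 0.13, limma adjusted p = 0.00986). *CG1946*, of the DGAT2 family, and *CG3209*, of the GPAT family, were at −0.44 and −0.42, below the required size. Both calls were lost without control replicate 1 (adjusted p = 0.0190 for *Gpdh* and 0.0850 for *CG4729*) and control replicate 3 (0.0136 and 0.0799). That of *CG4729* was also lost without *dMPC1-RNAi* replicate 2 (0.0152) or 3 (0.0285) and, by its size, without replicate 1, as well as with TMM scaling (0.0121) and edgeR (0.0143).

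In mutants 1 of 9 genes of triglyceride synthesis fell, with a median of −0.39. It was *CG1946*, with 869 in the control and 410 ± 1.33 in mutants (SD, n = 2), a log2 fold change of −1.08 (standard error 0.14, limma adjusted p = 0.00370). *CG4753* (−0.75) and *Lpin* (−0.69), the phosphatidate phosphatase, were not called. DESeq2 called both (adjusted p = 0.00334 and 0.00933), as did limma with all libraries in 1 fit. The call of *CG1946* was lost with edgeR (adjusted p = 0.0174) and without a filter on low values (0.0808).

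Of 12 genes for the synthesis and activation of fatty acids, 4 fell with *dMPC1* RNAi and 0 rose, with a median of −0.35. *Desat1*, the acyl-CoA desaturase, fell from 14733 ± 177 to 7363 ± 361 normalized counts (log2 fold change −1.002, standard error 0.09, limma adjusted p = 0.000518). *CG3523*, a fatty acid synthase, had −0.83 (standard error 0.09, limma adjusted p = 0.00117). *AcCoAS*, acetyl-CoA synthase, had −0.88 (standard error 0.11, limma adjusted p = 0.00213), and *bgm*, a long-chain acyl-CoA synthetase, −1.22 (standard error 0.18, limma adjusted p = 0.00359). Without either control replicate 0 of these calls held, with adjusted p of 0.0148, 0.0256, 0.0343 and 0.0447 without replicate 1 and 0.0119, 0.0202, 0.0285 and 0.0357 without replicate 3, in the same order of genes. Without *dMPC1-RNAi* replicate 2, *AcCoAS* (0.0109) and *bgm* (0.0138) were lost, and without replicate 3 *AcCoAS* (0.0111). Without replicate 1, 6 genes fell and 1 rose.

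In mutants *bgm* fell, from 2977 to 1092 ± 116 normalized counts, a log2 fold change of −1.45 (standard error 0.14, limma adjusted p = 0.00136). *Men*, the malic enzyme that supplies NADPH, was at 4211 in the control and 8704 ± 1516 in mutants, a log2 fold change of 1.04 that was not called by limma (adjusted p = 0.0153) but was by DESeq2 (7.86e-05). The other 11 genes of that list were not called, and the median was 0.04, or −0.01 without mutant replicate 2. The call of *bgm* was lost with all libraries in 1 fit (adjusted p = 0.0110) and without a filter on low values (0.0792). Without either mutant replicate it was lost too, with log2 fold changes of −1.56 to −1.34. Those fits also took their spread from both experiments.

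Among 11 other genes of lipid droplets and lipolysis, which include *Jabba*, *Hsl* and *dob*, *Seipin* alone fell with *dMPC1* RNAi. *Seipin*, which acts where droplets form at the endoplasmic reticulum, went from 1946 ± 28.8 to 958 ± 47.1 normalized counts, a log2 fold change of −1.02 (standard error 0.08, limma adjusted p = 0.000393). The median of the list was −0.07. Named by their p-values, *Cct1* (0.38), *CG10671* (−0.24) and *CG2254* (−0.23) were not called. In mutants 0 of 11 were called by limma, and *Seipin* was at −0.70, *CG8552* at −0.61, *CG2254* at −0.54 and *Cct2* at 0.55. The RNAi call of *Seipin* depended on control replicate 1 (adjusted p = 0.0128 without it), and 2 genes of the list fell without *dMPC1-RNAi* replicate 1.

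Lipases other than *mag* and *CG31091* moved in both directions with *dMPC1* RNAi. Of 20 further acid lipase genes 7 were found and 4 tested. *CG8093* rose from 321 ± 41.6 to 1283 ± 391 normalized counts, a log2 fold change of 1.95 (standard error 0.25, limma adjusted p = 0.00215). *CG2772* fell from 1276 ± 34.8 to 591 ± 149, a log2 fold change of −1.14 (standard error 0.20, limma adjusted p = 0.00697). *Lip4* (0.25) and *CG3635* (0.08) were not called. Both calls were lost without *dMPC1-RNAi* replicate 2 (adjusted p = 0.0135 for *CG8093* and 0.0289 for *CG2772*) and without control replicate 1 (0.0328 and 0.0696) or 3 (0.0194 and 0.0549). In mutants limma called none of the 4, with *Lip4* at −1.66, *CG2772* at −0.58, *CG3635* at 0.25 and *CG8093* at 0.07. The median of these 4 was −0.26. With no filter on low values more genes of the list entered the fit, and the median of the larger set was 0.25. *Lip4* was called lower by DESeq2 (adjusted p = 0.00446). It was also called without mutant replicate 1 (log2 fold change −2.20), where the fit took its spread from both experiments.

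Neutral lipases, the family of pancreatic-type secreted lipases, were lower with *dMPC1* RNAi as a median of −0.89 over 16 genes tested, of which 6 fell and 0 rose. *CG6295*, the most abundant, fell from 94090 ± 3781 to 25485 ± 6594 normalized counts, a log2 fold change of −1.91 (standard error 0.20, limma adjusted p = 0.00106). *CG17192* fell from 23342 ± 1429 to 4446 ± 1080, a log2 fold change of −2.42 (standard error 0.19, limma adjusted p = 0.000418). *CG6283* had −2.34 (limma adjusted p = 0.000694) and *CG17292* −0.95 (limma adjusted p = 0.00125). The others that fell were *CG5162* (−0.65) and *CG10163* (−1.53). The count of 6 went to 0 without control replicate 1, to 1 (*CG17192*) without control replicate 3, to 4 without *dMPC1-RNAi* replicate 2 or 3, and to 9 without *dMPC1-RNAi* replicate 1. Without control replicate 1, the adjusted p was 0.0111 for *CG17192*, 0.0158 for *CG6283*, 0.0207 for *CG6295* and 0.0259 for *CG17292*. Without control replicate 3 it was 0.0108 for *CG6283*, 0.0151 for *CG6295* and 0.0138 for *CG17292*.

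In mutants 2 of 15 neutral lipase genes fell and 1 rose, with a median of −0.23. With no filter on low values more genes of the list entered the fit, and the median of the larger set was 0.17. *CG17192* fell again, from 35927 to 5099 ± 2096 normalized counts, a log2 fold change of −2.88 (standard error 0.32, limma adjusted p = 0.00206). *CG6296* fell from 297 to 107 ± 5.59 (log2 fold change −1.47, limma adjusted p = 0.00370). *CG6283*, which fell with RNAi, rose from 352 to 713 ± 47.1 (log2 fold change 1.01, limma adjusted p = 0.00566). *CG5162* was at 0.68, not called. Without mutant replicate 1 all 3 calls were lost, and without replicate 2 those of *CG6296* and *CG6283*. Those fits took their spread from both experiments. Their log2 fold changes were −3.31 to −2.45 for *CG17192*, −1.52 to −1.42 for *CG6296* and 0.95 to 1.08 for *CG6283*. With edgeR all 3 calls were lost (adjusted p = 0.0160, 0.0101 and 0.0252), as they were with no filter on low values. With all libraries in 1 fit those of *CG6296* (0.0170) and *CG6283* (0.0670) were lost. These genes lie in a family of similar sequences, and how reads shared by copies were counted is not stated.

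Of 16 genes of fatty acid oxidation, 7 fell with *dMPC1* RNAi, 1 rose and 8 were not called, with a median of −0.59. *scu*, a hydroxyacyl-CoA dehydrogenase, fell from 1740 ± 127 to 943 ± 27.7 normalized counts (log2 fold change −0.88, limma adjusted p = 0.000783). *colt*, the carnitine-acylcarnitine carrier, had −0.68 (limma adjusted p = 0.00122), *CG7461*, an acyl-CoA dehydrogenase, −0.70 (limma adjusted p = 0.00133), and *CG17544*, an acyl-CoA oxidase, −0.69 (limma adjusted p = 0.00222). *Etf-QO*, *CG5009* and *CG9547* fell too, and *CG4860* rose, by a log2 fold change of 1.32. The count of 7 went to 0 without control replicate 1 (adjusted p = 0.0190, 0.0292, 0.0302 and 0.0414 for the 4 genes in order), to 1 (*scu*) without control replicate 3 (0.0192, 0.0172 and 0.0203 for the other three), to 3 and 4 without *dMPC1-RNAi* replicates 2 and 3 (0.0104 and 0.0117 for *CG17544*), and to 9 without replicate 1. The rise of *CG4860* was lost without control replicate 1 (0.0111) or 3 (0.0266) or *dMPC1-RNAi* replicate 2 (0.0179) or 3 (0.0197). In mutants limma called 0 of 16, with a median of −0.18. *CG5009* was at −0.71, *CG4860* at −0.96, *whd*, the outer carnitine palmitoyltransferase, at 0.56 and *Arc42* at 0.44.

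Of 14 regulators of lipid storage and lipase genes, 3 fell with *dMPC1* RNAi and 0 rose, with a median of −0.41. *Mio*, the fly relative of the sugar-sensing factors MondoA and ChREBP, fell from 4291 ± 199 to 1611 ± 107 normalized counts, a log2 fold change of −1.41 (standard error 0.09, limma adjusted p = 0.000208), and was called with each library left out. *sug* (sugarbabe), a zinc finger factor that responds to sugar feeding, had −1.05 (limma adjusted p = 0.00513). *foxo*, the factor restrained by insulin signaling that can activate *bmm*, had −0.84 (limma adjusted p = 0.00926). *srl*, the PGC-1 relative, was at −0.55, below the required size. *sug* was lost without *dMPC1-RNAi* replicate 2 (adjusted p = 0.0238) and without control replicate 1 (0.0562) or 3 (0.0486). *foxo* was lost without any library other than *dMPC1-RNAi* replicate 1 (0.0805, 0.0717, 0.0376 and 0.0300) and with edgeR (0.0114).

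In mutants *Akh* rose and 0 of the 14 fell. *Akh* encodes adipokinetic hormone, which is made by neuroendocrine cells of the corpora cardiaca and mobilizes fat body triglyceride. It had 78.5 normalized counts in the control and 200 ± 7.24 in mutants, a log2 fold change of 1.34 (standard error 0.18, limma adjusted p = 0.00538). *Mio* was at 0.57, *AkhR* at −0.76 (−0.29 and −1.23 without mutant replicates 1 and 2) and *lkb1* at −0.25, and the median was 0.13. The call of *Akh* was lost with edgeR (adjusted p = 0.0182), DESeq2 (0.0222), all libraries in 1 fit (0.0749) and no filter on low values (0.107). Without either mutant replicate it was lost too, with log2 fold changes of 1.30 to 1.37. Those fits took their spread from both experiments, so the missing library and the change of fit cannot be told apart.

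Of the 26 list genes called in the RNAi experiment, 25 were also called without *dMPC1-RNAi* replicate 1, the exception being *CG4729* (−0.54). Without that library the medians were −0.38 for triglyceride synthesis, −0.41 for fatty acid synthesis and activation, −0.20 for other lipid droplet and lipolysis genes, 0.23 for other acid lipases, −0.76 for neutral lipases, −0.64 for fatty acid oxidation and −0.50 for regulators.

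**Figure D4:**
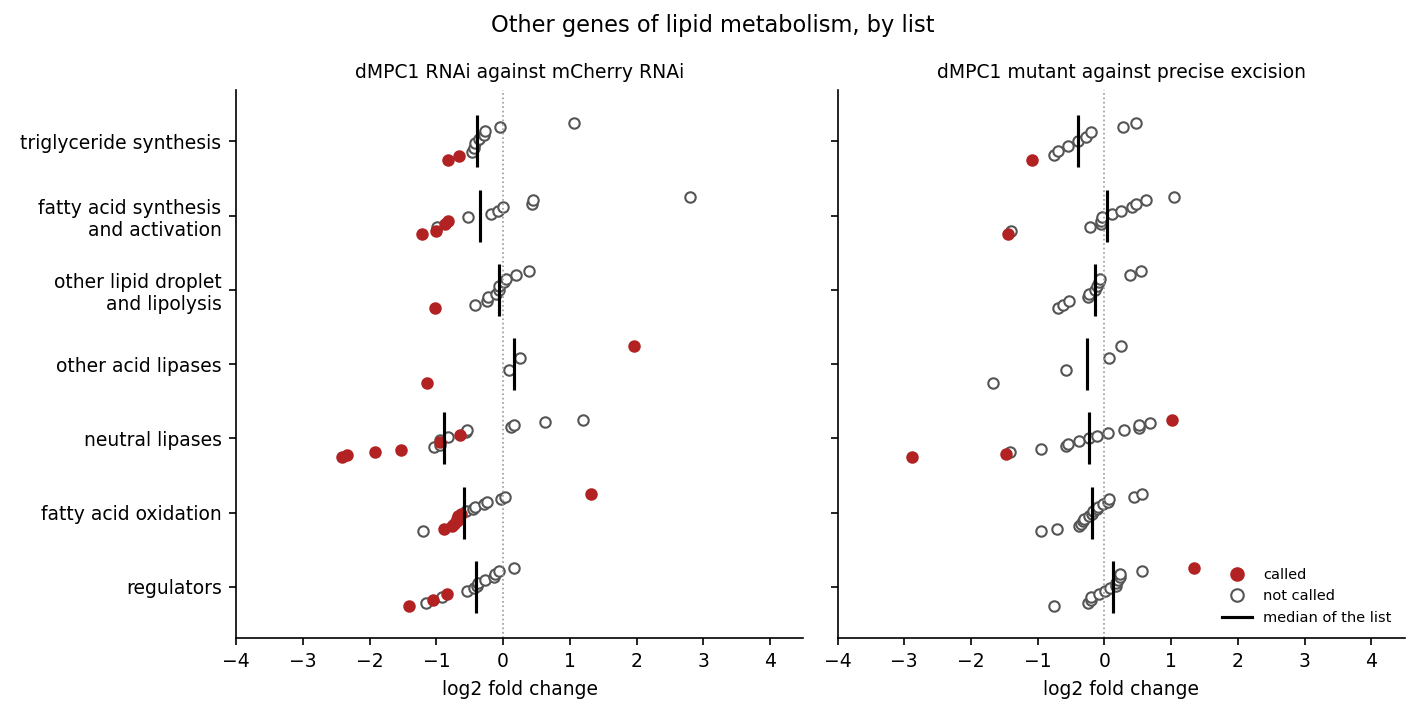
Log2 fold changes of the genes tested in 7 lists of lipid metabolism, with *dMPC1* RNAi on the left and in *dMPC1* mutants on the right. Each point is a gene, filled where it was called, and the bar is the median of the list. With RNAi the medians of neutral lipases (−0.89) and fatty acid oxidation (−0.59) are the lowest, and 24 genes are filled at lower values against 2 at higher ones.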

How the data were processed

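Single 50-cycle reads were aligned by the authors to dm3. The submitters' notes name Novoalign and DESeq, and the study's methods USeq and DESeq. For versions, annotation and strand the sources used here give nothing. The deposited signal columns hold normalized counts: gene counts divided by a size factor per library, both experiments scaled together. Whole reads were recovered from their steps (100% of 9981 values per library within 0.001 of a read). The authors' own log2 fold changes and p-values, also in these tables, were not used.

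limma 3.58.1 (R 4.3.3) with a mean-variance trend was fitted to log2(normalized count + 1), which understates changes of low genes. Genes averaging 10 or more in the compared libraries were kept. The experiments were fitted separately in the main fits. The interaction, all libraries in 1 fit and fits without a mutant library took their spread from both experiments. The main mutant fit has 1 control and takes its spread from the mutants. p-values reflect the spread among libraries, which the study calls biological replicates for RNAi only (it gives 4, the labels 3). Replicates of a group differed beyond sampling noise. edgeR 4.0.16 and DESeq2 1.42.0 on recovered reads were alternatives. The fits were also run on simulated counts with the same spread setting for every gene, which cannot show whether calls hold in these libraries. The genes described and all lists were chosen with earlier results of these data known. Named genes are these, up to 4 of smallest p per list and comparison, and the 3 most correlated with each.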

Additional observations from a re-analysis of the deposited data

Results flagged for a closer look

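Effects that differed between the experiments, in the limma interaction across all genes, were found for 2 of the 6 genes described and for 8 of the 82 list genes tested (9.76%), where 8.71% of all genes tested were called. Each value is the log2 fold change in mutants minus that with RNAi. It was 2.52 for *mag* (−2.79 with RNAi and −0.27 in mutants) and −4.29 for *CG31091* (−0.76 and −5.05), where no p is given because of how they were picked.

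Of the neutral lipases, *CG6283* had a difference of 3.35 (adjusted p = 0.00108), and fell with RNAi (−2.34) and rose in mutants (1.01). That rise was not called with edgeR or without a filter on low values. *CG17292* had 1.46 (adjusted p = 0.00208) and *CG5162* 1.33 (adjusted p = 0.00238), both with values of opposite sign in the experiments.

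*Mio*, the sugar-responsive factor, had a difference of 1.98 (adjusted p = 0.000686), from −1.41 with RNAi to 0.57 in mutants. In fatty acid synthesis, *Men* had 2.02 (adjusted p = 0.00573), *AcCoAS* 1.35 (adjusted p = 0.00384) and *Desat1* 1.25 (adjusted p = 0.00831), each negative with RNAi and positive in mutants. *CG4860*, an acyl-CoA dehydrogenase, had −2.28 (adjusted p = 0.00670), from 1.32 with RNAi to −0.96 in mutants. All adjusted p-values are from limma, and each difference rests on the single precise excision library. For the list genes, whether a called difference holds with a library left out or with other processing was not tested.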

How the results depend on the processing

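Direction was kept by each of the 6 genes in both comparisons under every alternative run. Each call of *Lsd-1*, *Lsd-2* and *mag* with RNAi held under pseudocounts of 0.5 and 5, no filter on low values, TMM scaling, all libraries in 1 fit, edgeR and DESeq2. Fits without a mutant library took their spread from both experiments, unlike the main mutant fit given in brackets below. In the mutant counts, the missing library and the change of fit therefore cannot be told apart. With a library left out, the genes that rose with RNAi numbered 128 to 895 (627 with all libraries) and those that fell 59 to 1040 (599), the lowest counts coming without control replicate 1, and 1 to 5 of the 6 genes were called. In mutants they numbered 18 to 28 (115) and 73 to 79 (210), with 0 of the 6 called, and leaving out the single precise excision library was not possible. For the difference between the experiments 36 to 885 genes had a higher value in the mutant experiment (351) and 85 to 748 a lower one (426), with 0 to 3 of the 6 called.

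In mutants, no filter on low values gave 0 genes that rose, 0 that fell and 0 of the 6 called by limma, with 1842 genes at an unadjusted p under 0.05, while DESeq2 called 126 that rose and 269 that fell. edgeR gave 33 and 99, and all libraries in 1 fit gave 47 that rose. That 47, and not the count of the main fit, is the like comparison for the genes that rose without a mutant library. The sign turned for *CG3635* with RNAi (−0.024 with the replicate block, and −0.024 to 0.180 with a library left out), for *CG8093* in mutants (−0.046 to 0.176), and for the difference of *bmm* (−0.381 to 0.218, negative without control replicate 1, *dMPC1-RNAi* replicate 1 or mutant replicate 2). The cause was not tested.

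With the replicate number as a block, 392 genes rose with RNAi and 447 fell, and the same number of the 6 genes, 3, was called. Of the fatty acid oxidation genes 4 fell instead of 7, and *colt* (adjusted p = 0.0105), *foxo* (0.0156) and *CG5162* (0.0132) were among the genes no longer called. Libraries with the same number did not deviate together (r = −0.23 for number 1 and −0.16 for number 3), so the numbers were not taken as pairs. For the mutant comparison, no paired analysis was possible because the mutant and precise excision groups share a single replicate number. Depth limits *CG31091* in the RNAi experiment, where it had 23 to 75 reads per library.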
